A study of Homo sapiens with 6 samples.

Results

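The genes of the G1/S transition and of DNA replication were followed in Cal27 cells whose interleukin-1β was silenced. They were a list of 38 genes, of 19775 genes that had a probe set annotated to a single symbol. A probe set is a group of short probes for 1 transcript. All 38 genes were on the array, on 74 of the 54613 probe sets that were not array controls, and no probe set paired a member with a second gene. Each gene was represented by its probe set with the highest mean signal over all arrays, and its other probe sets served as a check. All 38 representative probe sets, and 67 of the 74 probe sets, passed the filter on dim values, a signal above 18.6 on at least 3 arrays.

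Cal27 is a cell line established from a human squamous cell carcinoma of the tongue. The arrays (Affymetrix Human Genome U133 Plus 2.0) held RNA of 3 samples of cells with LV-shIL-1β, a hairpin RNA that targets interleukin-1β, and of 3 samples of cells with LV-shNC, a scrambled hairpin. Both hairpins were delivered by lentivirus with polybrene, and the labels describe 2 weeks of puromycin at 2 µg/mL to select the transduced cells. Each arm rests on 1 hairpin, selected cells were not described as clones, and nothing in the sources used here says that the 3 samples of an arm were separate cultures, so the p-values refer to array-to-array spread alone, and this spread may be technical. IL1B, the target of the hairpin, had signals of 1569, 1569 and 1596 in LV-shIL-1β, against 2677, 2611 and 2494 in LV-shNC. It fell (log2 fold change -0.72 ± 0.04, SE; Benjamini-Hochberg adjusted p = 2.46e-05 with limma), and its other probe set was lower as well.

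The study addressed how gene expression differs after interleukin-1β silencing in these cells. Before a cell enters S phase, the origin recognition complex, CDC6 and CDT1 load the ring-shaped MCM helicase onto origins, which licenses them. Cyclin E with its kinase, and the kinase CDC7 with DBF4, then start the helicase together with CDC45 and the GINS complex, and polymerases, the sliding clamp and its loaders copy the strands. Most of these genes are transcribed in late G1 by E2F transcription factors, which the retinoblastoma protein holds back, and their mRNA levels are widely used as a mark of proliferating epithelial and tumor cells. In RNA from bulk cells, fewer cells in a phase and less RNA per cell cannot be told apart.

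The forward hairpin oligonucleotides are shown because they are the only designed difference between the groups. Capitals mark the 19 bases of the stem and their reverse complement, on either side of the loop.
LV-shIL-1β: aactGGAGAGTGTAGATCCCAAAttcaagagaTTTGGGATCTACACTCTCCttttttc
LV-shNC: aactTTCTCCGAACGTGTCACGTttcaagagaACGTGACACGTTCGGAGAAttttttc

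Promoter bases upstream of the transcription start were taken from RefSeq (GRCh38.p14) for the members, because these genes are known as E2F targets. A promoter was found for 32 of the 38 members. An E2F word (TTTGGCGC, TTTGCCGC, TTTCGCGC or TTTCCCGC, either strand) was present in the 250 bases before the start in 12 of the 32 genes (37.5%), against 3.40% of all 27305 genes in the table. A CCAAT box (CCAAT, either strand) was present in 20 of the 32 (62.5%), against 37.0% of all genes. No E2F word overlapped a CCAAT box in a member, and the 4 E2F matches of MCM6 fell in 2 places. The genes with an E2F word were E2F1, E2F2, MCM3, MCM6, MCM7, RFC3, GINS2, CDT1, TYMS, LIG1, PCNA and POLA1. Of the 4 members that passed the test described next (ORC1, CDC6, MCM3 and FEN1), MCM3 had 1 E2F word, ORC1 and CDC6 had only CCAAT boxes, and FEN1 had neither. The promoters of MCM3, CDC6 and ORC1 are shown with the matches in capitals, 5′ to 3′ toward the start, to show where these words lie in the promoters of called members that hold any. MCM3 lies at chr6:52284743-52284992 (minus strand), CDC6 at chr17:40287629-40287878 (plus strand) and ORC1 at chr1:52404424-52404673 (minus strand).
MCM3: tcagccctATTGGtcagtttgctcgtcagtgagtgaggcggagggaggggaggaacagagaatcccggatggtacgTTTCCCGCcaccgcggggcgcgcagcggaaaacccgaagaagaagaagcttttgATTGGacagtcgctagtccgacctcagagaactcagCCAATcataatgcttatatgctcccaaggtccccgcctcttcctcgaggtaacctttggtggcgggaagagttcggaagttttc
CDC6: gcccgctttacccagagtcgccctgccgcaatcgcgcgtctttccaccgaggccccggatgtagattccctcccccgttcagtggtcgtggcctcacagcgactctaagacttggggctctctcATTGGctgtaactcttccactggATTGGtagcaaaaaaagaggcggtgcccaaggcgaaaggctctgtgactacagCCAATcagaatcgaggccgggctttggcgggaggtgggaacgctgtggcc
ORC1: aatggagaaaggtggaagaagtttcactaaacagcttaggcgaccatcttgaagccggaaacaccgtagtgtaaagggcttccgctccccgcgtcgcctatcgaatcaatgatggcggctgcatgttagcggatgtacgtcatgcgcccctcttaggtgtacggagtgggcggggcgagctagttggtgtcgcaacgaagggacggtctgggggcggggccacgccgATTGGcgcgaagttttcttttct
A match describes the letters only, and words that lie after the start or differ by a base were not searched.

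Across the list, most members were slightly higher in LV-shIL-1β, and few of these differences passed the test. With limma, 4 of 38 rose (10.5%: ORC1, CDC6, MCM3 and FEN1) and 0 fell at a Benjamini-Hochberg adjusted p under 0.05, whereas at an unadjusted p under 0.05 it was 16 higher and 2 lower. Over all 27566 probe sets tested, 3.68% were called higher and 3.37% lower (7.05% in all), and 13.0% were higher and 9.62% lower at the unadjusted threshold. With only the brightest probe set of each gene, as for the members, 8.52% of 12320 genes were called, 496 higher and 554 lower. Of these 12320 genes, 6299 had a log2 fold change above 0 and 6021 below. Their groups did not overlap for 1964 higher and 1936 lower, and 1606 were higher and 1475 lower at the unadjusted threshold. The log2 fold change was above 0 for 32 of the 38 members and for 53.2% of all probe sets, and below 0 for 6 members and 46.8% of all probe sets. Its median was 0.10 over the members, 0.01 over all probe sets tested, and ranged among members between -0.30 for CCNE1 and 0.52 for CCNE2. All 3 LV-shIL-1β arrays lay above all 3 LV-shNC arrays for 15 members and below them for 2, against 15.3% above and 12.6% below (27.9% in all) over all probe sets. The count of calls rested on single arrays. It was 0 without LV-shIL-1β array 2 or without LV-shNC array 2, 1 without LV-shNC array 3 (FEN1) and 1 without LV-shIL-1β array 3 (CCNE1, lower), while it was 4 without LV-shNC array 1 and 7 without LV-shIL-1β array 1. Over all probe sets the count was 1943, and it was lower whichever array was left out, at 696 and 911 without array 2 of LV-shIL-1β or LV-shNC. When the probe sets of each gene were averaged instead, 13 members passed (limma, Benjamini-Hochberg adjusted p), 12 higher and 1 lower, against 12.5% of all 12322 genes in that fit, 6.59% higher and 5.89% lower.

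**Figure D1:**
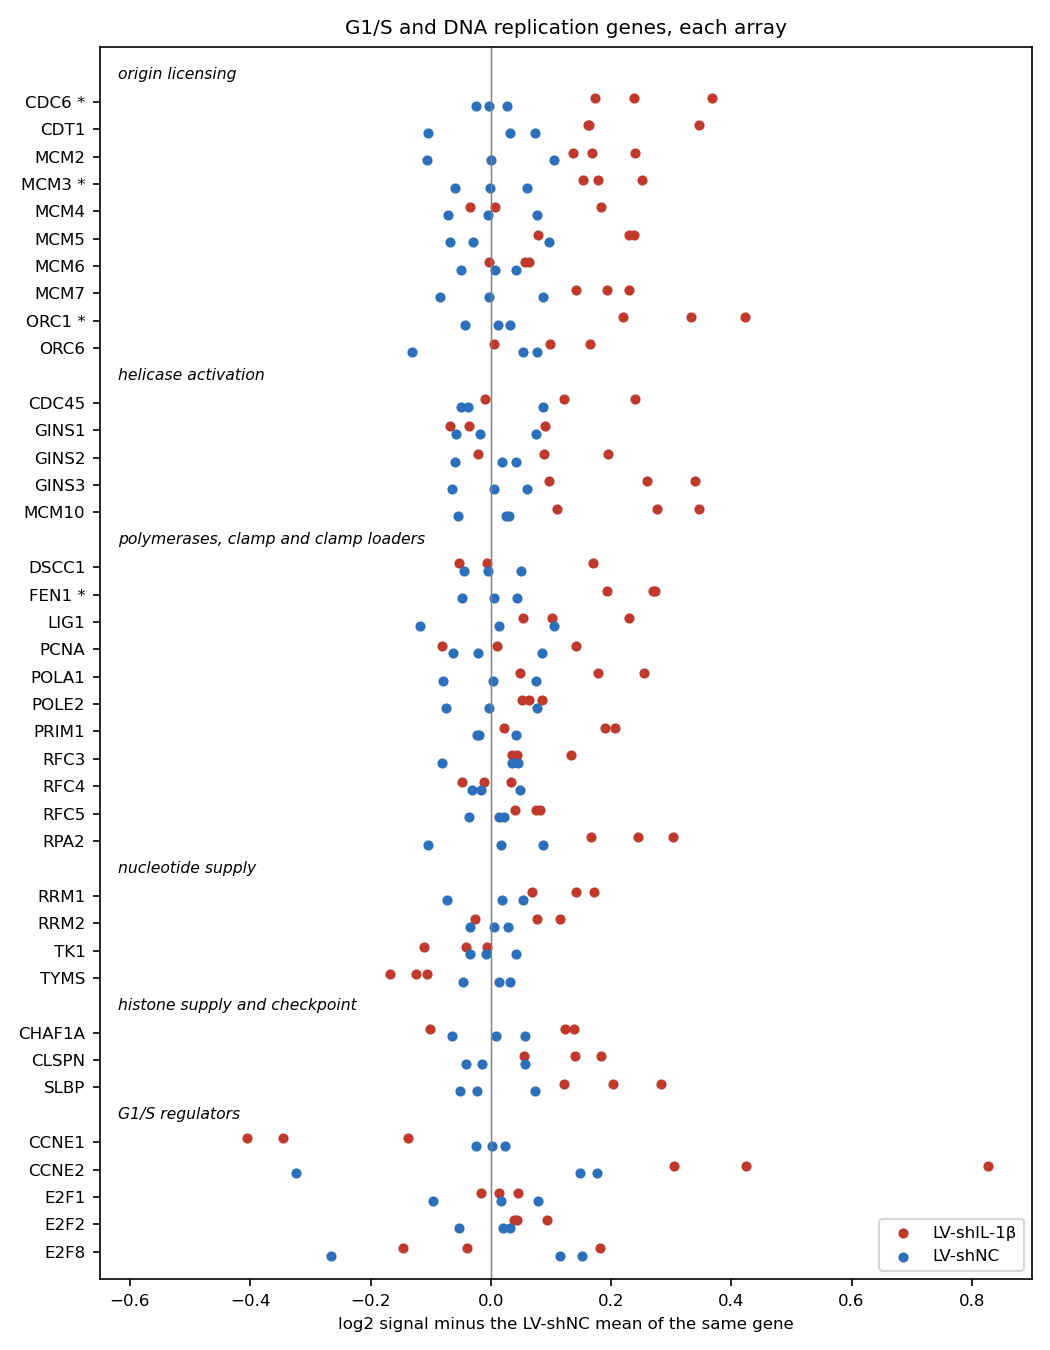
Log2 signal of each of the 38 members on each array, minus the mean of the 3 LV-shNC arrays for that gene (horizontal axis), with LV-shIL-1β in red and LV-shNC in blue, grouped by role; an asterisk marks the 4 members that passed limma's test. Most red points lie right of 0, and those of CCNE1 and TYMS lie left of all blue ones.

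Origin licensing genes, 10 of the 38 members, held 3 of the 4 calls, against 3.68% called higher over all probe sets. All 10 had a log2 fold change above 0 (53.2% over all probe sets), with a median of 0.19, although that of MCM4 was -0.01 without LV-shIL-1β array 1. ORC1, the largest subunit of the origin recognition complex, had signals of 86.1, 99.0 and 93.1 in LV-shIL-1β, against 75.5, 71.7 and 74.5 in LV-shNC. The groups did not overlap, and ORC1 was 1.25-fold higher (log2 fold change 0.33 ± 0.07, SE, adjusted p = 0.0265). CDC6, the ATPase that loads the helicase, had 302, 345 and 316 in LV-shIL-1β, against 273, 267 and 263 in LV-shNC, again without overlap (0.26 ± 0.06, adjusted p = 0.0326). The second CDC6 probe set had 294, 328 and 301 in LV-shIL-1β and 237, 241 and 241 in LV-shNC, and passed as well (0.36 ± 0.06, adjusted p = 0.00595). MCM3, a helicase subunit, had 679, 727 and 690 in LV-shIL-1β, against 636, 610 and 586 in LV-shNC (0.19 ± 0.05, adjusted p = 0.044). After each array was centred on its median, MCM3 stood at 0.17 and no longer passed (adjusted p = 0.0595), nor did it with no filter on dim values (0.0671). The calls of all 3 were lost without LV-shIL-1β array 2 or 3 or LV-shNC array 2 or 3, with limma's adjusted p up to 0.115 for ORC1, 0.126 for CDC6 and 0.176 for MCM3, and those of ORC1 and CDC6 also without LV-shNC array 1 (0.0519 and 0.0604).

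The other helicase subunits and loaders did not pass on their brightest probe sets. MCM7 had 818, 870 and 848 in LV-shIL-1β, against 788, 740 and 700 in LV-shNC (0.19 ± 0.05, limma, adjusted p = 0.0615). MCM2 had 733, 717 and 771 in LV-shIL-1β, against 702, 607 and 652 in LV-shNC (0.18 ± 0.06, adjusted p = 0.0995). Neither gene's groups overlapped, and both passed without LV-shNC array 1 (0.0356 and 0.0477). CDT1, the partner of CDC6 in loading, had 160, 182 and 160 in LV-shIL-1β and 133, 147 and 151 in LV-shNC, also without overlap (0.22 ± 0.07, adjusted p = 0.109). Its probe set carries the suffix _x_at, which marks probes open to cross-hybridisation. MCM5 overlapped by 1 array, with 463, 517 and 514 in LV-shIL-1β and 469, 430 and 419 in LV-shNC (0.18 ± 0.06). MCM6 (0.04 ± 0.04) and ORC6 (0.09 ± 0.07) overlapped more widely. MCM4 depended on the probe set. Its brightest one stood at 0.05 ± 0.06 and overlapped, whereas the other 3 that were tested stood at 0.23 ± 0.06, 0.23 ± 0.07 and 0.19 ± 0.10, and the mean over all 4 passed (0.17, limma, adjusted p = 0.0315).

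Among genes that activate the helicase, MCM10, which stabilises the working helicase, had signals of 198, 234 and 223 in LV-shIL-1β, against 188, 187 and 177 in LV-shNC (0.24 ± 0.07, SE, limma, adjusted p = 0.0685). The groups did not overlap, and its other 2 probe sets had values of 0.14 ± 0.08 and 0.23 ± 0.09. GINS3, a subunit of the GINS complex, had 144, 170 and 161 in LV-shIL-1β and 135, 128 and 140 in LV-shNC (0.23 ± 0.07, adjusted p = 0.0969). Its second probe set passed, with 140, 146 and 140 in LV-shIL-1β and 109, 111 and 120 in LV-shNC (0.33 ± 0.06, adjusted p = 0.0134). The remaining subunits GINS1 (-0.0041 ± 0.06) and GINS2 (0.09 ± 0.06) and the helicase cofactor CDC45 (0.12 ± 0.07) overlapped between groups. MCM10 and GINS3 passed without LV-shIL-1β array 1 (adjusted p = 0.021 and 0.0341).

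Of the 11 genes for synthesis of the strands, FEN1, the nuclease that trims Okazaki fragments on the lagging strand, rose. Its signals were 928, 978 and 980 in LV-shIL-1β, against 814, 784 and 836 in LV-shNC, and the groups did not overlap (0.25 ± 0.04, SE, limma, adjusted p = 0.011). It was the member with the lowest adjusted p, and its second probe set did not pass (0.14 ± 0.06, adjusted p = 0.244). FEN1 no longer passed when LV-shIL-1β array 2 or 3 or LV-shNC array 2 was left out (adjusted p up to 0.0658). RPA2, a subunit of the protein that coats single-stranded DNA, had 265, 241 and 254 in LV-shIL-1β, against 199.5, 217 and 228 in LV-shNC (0.24 ± 0.07, adjusted p = 0.0613). RFC5, a clamp loader subunit, had 450, 452 and 440 in LV-shIL-1β and 431, 417 and 434 in LV-shNC, a small difference without overlap (0.07 ± 0.05). PCNA, the sliding clamp itself, differed less than its spread, with 1967, 1795 and 1685 in LV-shIL-1β and 1707, 1890 and 1756 in LV-shNC (0.02 ± 0.06, 95% confidence interval -0.11 to 0.16). The polymerase and primase subunits POLA1 (0.16 ± 0.07), PRIM1 (0.14 ± 0.06) and POLE2 (0.07 ± 0.06), the ligase LIG1 (0.13 ± 0.07) and the clamp loader genes RFC3 (0.07 ± 0.05), RFC4 (-0.01 ± 0.04) and DSCC1 (0.04 ± 0.07) overlapped.

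The genes of nucleotide supply did not share a direction. TYMS, which makes thymidylate and is the target of fluorouracil, had signals of 1783, 1805 and 1730 in LV-shIL-1β, against 1881, 1986 and 1961 in LV-shNC. The 2 groups did not overlap, with LV-shIL-1β the lower one, but the difference did not pass (-0.13 ± 0.04, SE, limma, adjusted p = 0.062), and it did after median centring (-0.16, adjusted p = 0.0398). TK1, the salvage enzyme for thymidine, stood at -0.05 ± 0.05 with overlap. RRM1, the large subunit of ribonucleotide reductase, had 1635, 1756 and 1720 in LV-shIL-1β, against 1484, 1619 and 1580 in LV-shNC (0.13 ± 0.04, adjusted p = 0.128), without overlap. RRM2, the small subunit, overlapped (0.06 ± 0.04).

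SLBP, which binds the stem-loop of histone mRNAs and is needed for histone supply in S phase, had 1004, 898 and 950 in LV-shIL-1β, against 796, 868 and 812 in LV-shNC. The groups did not overlap and the test fell just short (0.20 ± 0.05, SE, limma, adjusted p = 0.0504). CLSPN, an adaptor of the replication checkpoint, stood at 0.13 ± 0.06, and CHAF1A, a subunit of the histone chaperone CAF-1, at 0.05 ± 0.07, both with overlap.

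Among the G1/S regulators, the brightest probe sets of both cyclin E genes separated the groups, in opposite directions. CCNE2 had signals of 251, 189 and 174 in LV-shIL-1β, against 113, 160 and 157 in LV-shNC, with a wide spread in both groups (0.52 ± 0.15, SE, limma, adjusted p = 0.0766). Its second probe set was tighter and passed, with 101, 109 and 103 in LV-shIL-1β and 82.5, 81.7 and 75.3 in LV-shNC (0.38 ± 0.07, adjusted p = 0.00941). CCNE1 had 70.8, 73.8 and 85.2 in LV-shIL-1β, against 92.1, 95.3 and 93.9 in LV-shNC (-0.30 ± 0.08, adjusted p = 0.054). The 95% confidence interval was 0.17 to 0.86 for the brightest CCNE2 probe set and -0.47 to -0.12 for CCNE1, and the difference between the 2 genes was not tested. CCNE1 passed after quantile normalization (adjusted p = 0.0402) or median centring (0.04). Its other probe set lay below the filter and pointed the other way, with overlap (0.29). The E2F genes themselves differed little. E2F1 had 142, 139 and 145 in LV-shIL-1β and 148, 142 and 132 in LV-shNC (0.01 ± 0.06, 95% confidence interval -0.13 to 0.16). E2F2, an activating factor like E2F1, stood at 0.06 ± 0.07, its groups apart by a small margin, and the repressive E2F8 at -0.0016 ± 0.12 with the widest interval of the E2F genes (-0.27 to 0.27).

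**Figure D2:**
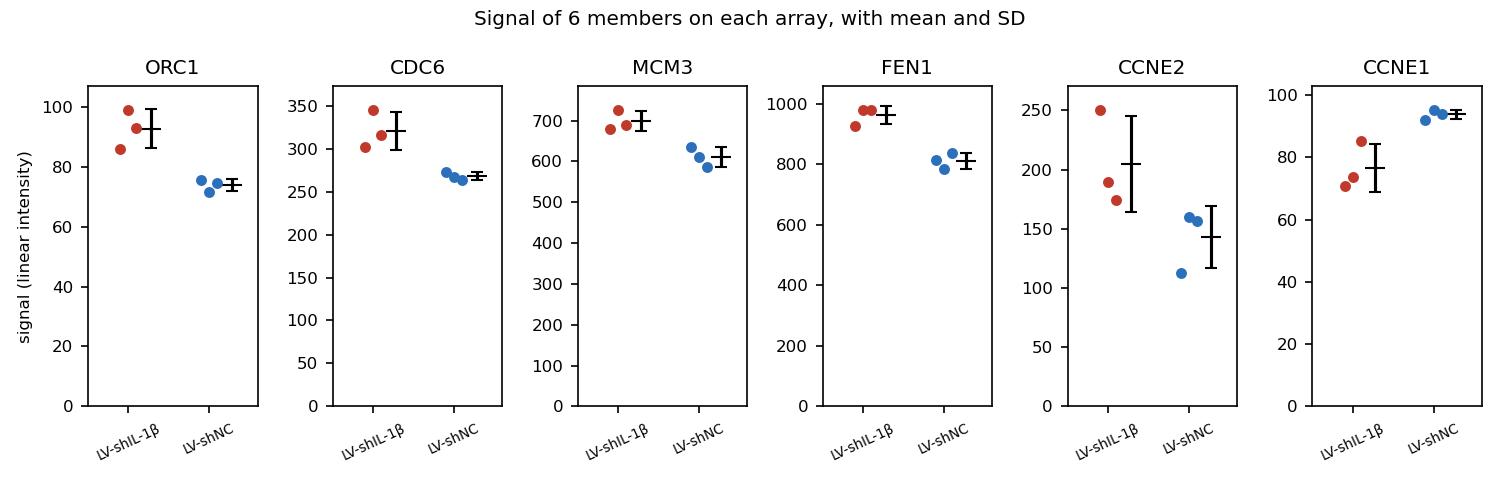
Signal of ORC1, CDC6, MCM3, FEN1, CCNE2 and CCNE1 on their brightest probe sets (vertical axis, linear intensity from 0), with LV-shIL-1β in red to the left of LV-shNC in blue; points are arrays 1 to 3 of each group, and black marks give means with SD (n = 3). In CCNE1 the LV-shIL-1β arrays lie below the LV-shNC arrays, and in the other genes above them.

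The other probe sets of the members mostly pointed the same way. Of the 67 probe sets tested, 54 had a log2 fold change above 0 and 7 passed, all of them higher, on 6 genes (limma), against 53.2% above 0 and 3.68% called higher over all probe sets. For 21 members more than 1 probe set was tested, and all of a gene's probe sets had the same sign for 17 of these. The exceptions were GINS2, RFC3, RFC5 and DSCC1, whose negative values lay between -0.12 and -0.0056. The 13 members that passed on the mean of their probe sets were ORC1, CDC6, MCM3, FEN1, CCNE2 (0.45), GINS3 (0.28), RPA2 (0.24), CDT1 (0.21), MCM10 (0.21), SLBP (0.20), MCM7 (0.19) and MCM4 (0.17), which were higher, and CCNE1 (-0.30). SLBP, RPA2 and CCNE1 have 1 probe set tested, so their log2 fold change was as before, and in that fit Benjamini-Hochberg adjustment ran over genes in place of probe sets.

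**Figure D3:**
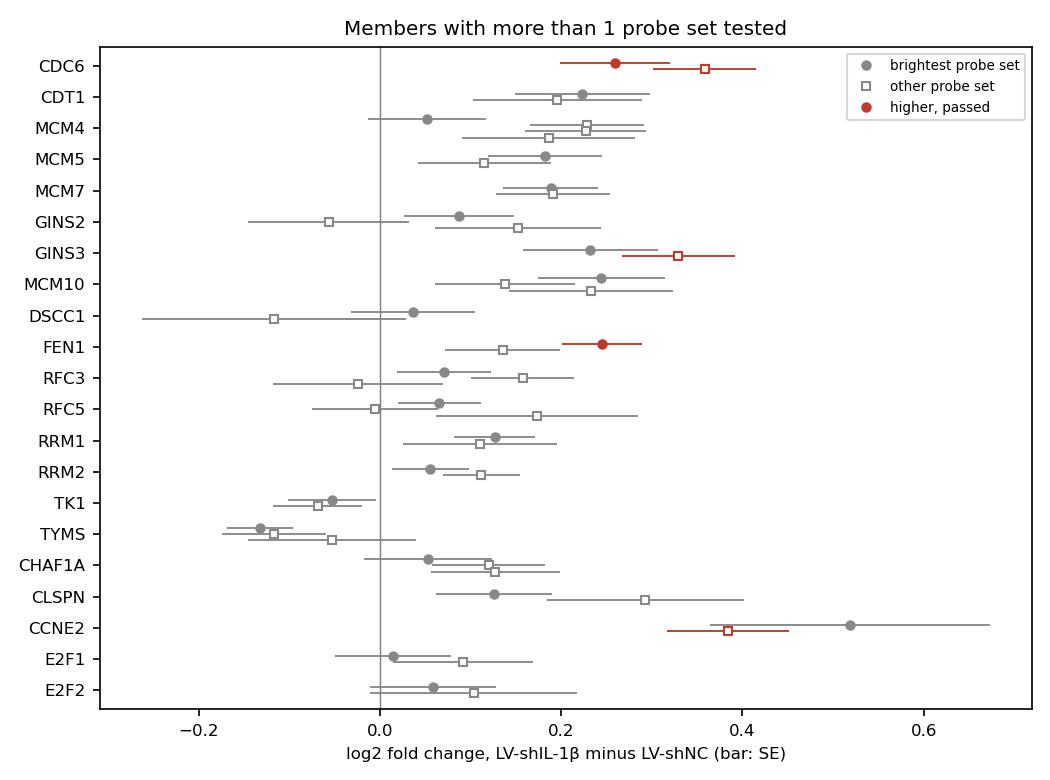
Log2 fold change of LV-shIL-1β over LV-shNC for each tested probe set (horizontal axis, bars are SE) for the 21 members with more than 1; filled circles are the brightest probe set of a gene, open squares the others, and red marks a probe set that passed. Both CDC6 probe sets passed, while in CCNE2 and GINS3 only the dimmer one did.

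The arrays of a group did not behave alike, for the members or over all probe sets. LV-shIL-1β array 2 had the highest signal of all 6 arrays for 20 of the 38 members (52.6%), against 22.6% of all probe sets tested. LV-shIL-1β array 1 was the lowest of its group for 22 members (57.9%), against 47.7% of all probe sets. For 7 members, MCM4, PCNA, CCNE2, E2F8, RPA2, ORC6 and SLBP, the order was turned round, with array 1 highest within LV-shIL-1β and lowest within LV-shNC. For 11 members, among them MCM3, CDC6, ORC1, MCM7 and MCM10, array 1 was lowest within LV-shIL-1β and highest within LV-shNC. These 2 patterns held for 18.4% and 28.9% of the members, near the 15.8% and 25.3% of all probe sets tested. The ratio of 3′ to 5′ signal of GAPDH, a measure of RNA integrity, lay between 0.02 and 0.05 on the log2 scale in LV-shIL-1β and between -0.06 and 0.01 in LV-shNC, and its part in these results was not tested. The same ratio of ACTB overlapped, at 0.33 to 0.44 in LV-shIL-1β and 0.30 to 0.55 in LV-shNC.

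Other genes of replication, which were not on the list, had log2 fold changes between -0.21 and 0.31. Of 41 tested, 2 rose and 0 fell (limma, Benjamini-Hochberg adjusted p), with 12 higher and 2 lower at an unadjusted p under 0.05 and a median log2 fold change of 0.08. Over all probe sets the shares were 3.68% and 3.37% by adjusted p and 13.0% and 9.62% by unadjusted p. CDC7, the kinase that fires licensed origins, had signals of 153, 162 and 151 in LV-shIL-1β, against 131, 134 and 133 in LV-shNC (0.23 ± 0.06, SE, adjusted p = 0.045). Its call was lost whichever of the 6 arrays was left out (adjusted p up to 0.171), and after quantile normalization (0.0533) or with no filter (0.0752). USP1, which removes ubiquitin from PCNA, rose as well (0.18 ± 0.04, adjusted p = 0.0172), but not on the mean of its probe sets (0.06), and it did not pass when LV-shIL-1β array 2 or 3 or LV-shNC array 2 or 3 was left out (adjusted p up to 0.087). DBF4, the partner of CDC7, stood at -0.07 ± 0.10. The 2 genes lower at the unadjusted threshold were CHAF1B (-0.21 ± 0.09, adjusted p = 0.182) and RFC2 (-0.15 ± 0.06, adjusted p = 0.146). In both, the groups did not overlap. The phosphatase CDC25A, which frees cyclin-dependent kinases for S phase, had 108, 133 and 125 in LV-shIL-1β and 101, 93.8 and 100 in LV-shNC, without overlap (0.31 ± 0.08, adjusted p = 0.054).

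Upstream of the members, 0 of 10 E2F and retinoblastoma family genes passed (limma), against 7.05% of all probe sets. At an unadjusted p under 0.05, 3 were higher and 1 lower, against 13.0% and 9.62% of all probe sets. Among the higher ones were E2F7, a repressive factor related to E2F8 (0.22 ± 0.06, SE, adjusted p = 0.0627), and E2F6 (0.24 ± 0.07, adjusted p = 0.0734). RB1, which encodes the retinoblastoma protein, stood at 0.02 ± 0.14 with overlap. TFDP1, the DNA-binding partner of E2F factors, depended on the probe set. Its brightest one stood at -0.04 ± 0.04 and a second at 0.02 ± 0.11, whereas a dimmer one passed as higher, with signals of 114, 132 and 113 in LV-shIL-1β and 79.7, 86.0 and 84.1 in LV-shNC (0.52 ± 0.08, adjusted p = 0.00382). Of 10 G1 cyclin and inhibitor genes, the cyclin CCND2 fell, with 1024, 1057 and 1027 in LV-shIL-1β, against 1402, 1402 and 1405 in LV-shNC (-0.44 ± 0.04, adjusted p = 0.000254), and passed whichever array was left out. CDK6, the kinase that D-type cyclins activate, rose on its brightest probe set (0.24 ± 0.05, adjusted p = 0.017), with 1058, 993 and 1103 in LV-shIL-1β and 884, 880 and 909 in LV-shNC. On the mean of its probe sets it did not pass (0.17, adjusted p = 0.0632), nor without LV-shIL-1β array 3 or LV-shNC array 2 (up to 0.0701). CCND1 (-0.03 ± 0.05), CCND3 (0.02 ± 0.06) and the inhibitors CDKN1A (-0.04 ± 0.06) and CDKN2A (-0.01 ± 0.06) did not pass. CDKN2D did not pass either but was lower without overlap (-0.17 ± 0.07, adjusted p = 0.21). The second CDKN2A probe set was also lower without overlap (-0.21 ± 0.08, adjusted p = 0.163). CDKN1B stood at 0.23 ± 0.12 and CDKN2B at 0.03 ± 0.08, both with overlap. The brightest CDKN1C probe set lay below the filter and was lower without overlap (-0.54).

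The G2/M and mitosis genes, which follow the replication genes in the cycle, had a median log2 fold change of -0.12 over 30 genes, against 0.10 for the G1/S and replication genes. In this list 25 genes had a value below 0 and 2 fell, with 0 higher (limma, Benjamini-Hochberg adjusted p), and 12 were lower and 0 higher at an unadjusted p under 0.05. Over all probe sets, 46.8% were below 0, 3.37% were called lower and 9.62% were lower at the unadjusted threshold. The mitotic kinesin KIF20A had 640, 678 and 667 in LV-shIL-1β, against 795, 821 and 817 in LV-shNC (-0.29 ± 0.04, SE, adjusted p = 0.00399), and passed whichever array was left out. The cyclin CCNB2 had 975, 946 and 949 in LV-shIL-1β, against 1120, 1124 and 1055 in LV-shNC (-0.20 ± 0.04, adjusted p = 0.0209), and did not pass when LV-shIL-1β array 2 or 3 or LV-shNC array 1 or 2 was left out (adjusted p up to 0.0963). MKI67, a widely used proliferation marker, overlapped, with 393, 456 and 479 in LV-shIL-1β and 656, 497 and 469 in LV-shNC (-0.28 ± 0.12, adjusted p = 0.198). Without LV-shNC array 1 the value was -0.13, and its other 3 probe sets stood at 0.02 ± 0.06, -0.09 ± 0.08 and -0.03 ± 0.05. Dimmer probe sets passed as lower for ASPM (-0.31 ± 0.08 and -0.38 ± 0.09), NEK2 (-0.35 ± 0.08) and CDK1 (-0.22 ± 0.05). The brightest ones of these genes did not pass (-0.22 ± 0.08, -0.14 ± 0.08 and 0.01 ± 0.07). In CCNB1 the brightest probe set stood at -0.11 ± 0.04 and the second at 0.13 ± 0.07. Whether the lists differ from each other was not tested.

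**Figure D4:**
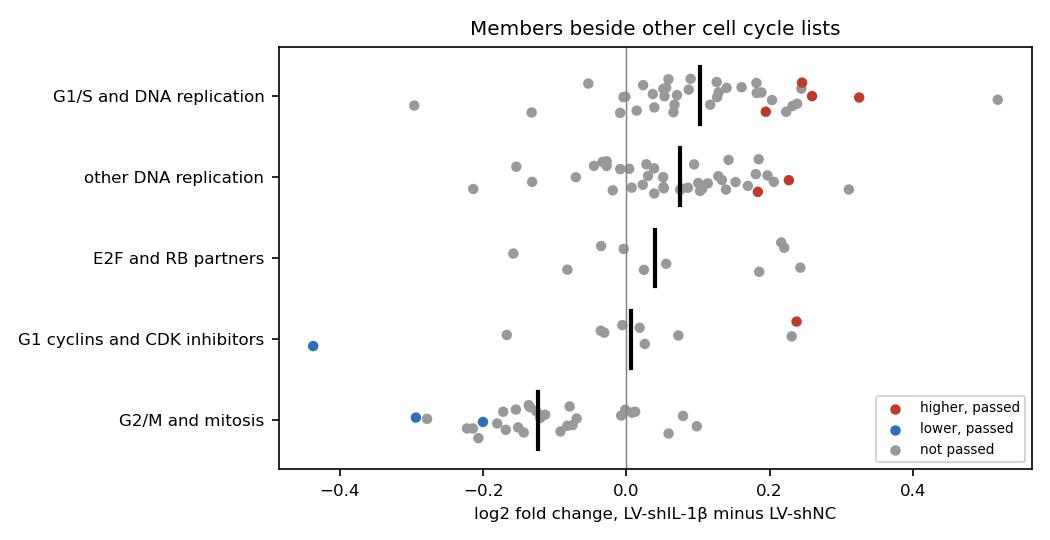
Log2 fold change of LV-shIL-1β over LV-shNC (horizontal axis) of the brightest probe set of each gene in 5 lists; red and blue points passed limma's test as higher or lower, grey points did not, and the black bar is the median of a list. The median lies at 0.10 for the G1/S and replication genes and at -0.12 for the G2/M and mitosis genes.

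The epithelial identity of the cells was checked on 5 markers with a probe set of their own, all of which passed the filter. Their summed signal was 12329 to 13105 in LV-shIL-1β and 14578 to 15330 in LV-shNC, and the basal keratins KRT14 (-0.35 ± 0.03) and KRT5 (-0.32 ± 0.04) fell (limma, Benjamini-Hochberg adjusted p = 0.000262 and 0.00152). CDH1 (0.04 ± 0.04), EPCAM (0.06 ± 0.07) and DSG3 (-0.10 ± 0.09) did not pass. None of the 3 leukocyte markers passed the filter, with sums of 25.3 to 32.1 in LV-shIL-1β and 30.5 to 31.8 in LV-shNC, and 1 of 4 endothelial markers did, with sums of 60.5 to 62.1 in LV-shIL-1β and 62.0 to 65.4 in LV-shNC. Of 5 fibroblast markers 2 passed the filter, with sums over all 5 of 58.0 to 62.3 in LV-shIL-1β and 67.0 to 76.1 in LV-shNC. Of these, the collagen gene COL1A2, was dim and fell, with signals of 17.08, 16.02 and 15.08 in LV-shIL-1β, against 25.18, 22.64 and 21.87 in LV-shNC (-0.53 ± 0.10, limma, adjusted p = 0.013). Its other 2 probe sets lay below the filter, also lower in LV-shIL-1β without overlap, and its call was lost when LV-shIL-1β array 2 or 3 was left out (0.0598 and 0.0539). Their part in the members' values was not tested.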

How the data were processed

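RNA of 3 LV-shIL-1β and 3 LV-shNC samples of Cal27 cells (6 µg of total RNA per the labels) was hybridised to U133 Plus 2.0 arrays. The authors deposited linear signal intensities for 54675 probe sets, and the submitters' processing notes name MAS5. Its version, scaling and background correction were not stated in those sources, and no detection calls were used. The median intensity per array lay between 18.4 and 18.9, and precision is limited by there being 3 arrays in each group.

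Signals were put on the log2 scale with no further normalization. After 62 control probe sets were left out, those above the median of all other values (18.6) on at least 3 of the 6 arrays were kept (27566). Groups, taken from the sample titles, were compared in R 4.3.3 by limma 3.58.1 (linear model, moderated with trend, two-sided), with Benjamini-Hochberg adjustment over all probe sets kept, at a threshold of 0.05. Adjusted p in the results are of this kind. The model was also run on simulated data. Noise there was independent between probe sets, so shifts shared within an array were not covered. A single symbol was given for 41097 probe sets in the platform annotation, several for 1801 and none for 11777, and 41043 identifiers matched RefSeq (GRCh38.p14). Members and lists were chosen with earlier results of these data known. Members were shown array by array where they passed or, up to 16 in all, where their groups did not overlap, by size of change. Genes of the other lists were named where their brightest probe set passed. Members that overlapped, and genes of other lists whose brightest probe set did not pass, were picked as examples after their values were seen. The alternatives were quantile normalization, median centring, no filter and a stricter one, a pseudocount of 16, the replicate number as a block, the methods' t-test, probe set means and leaving out each array.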

Additional observations from a re-analysis of the deposited data

How the results depend on the processing

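With 3 arrays a group, each of the 4 calls among the members was lost when 1 of several single arrays was left out. Without detection calls, the signal over background of dim probe sets is unknown. IL1B kept its direction and passed under every alternative, between -0.74 and -0.69. The members' median stayed between 0.076 and 0.15, with both extremes from leaving out an array of LV-shIL-1β. With the replicate number as a block, 568 probe sets passed, with 0 members, 0 other replication genes, 1 G1 cyclin or inhibitor and 1 G2/M gene. Same-numbered arrays did not deviate together (correlations of -0.39, -0.11 and -0.21 for numbers 1, 2 and 3). Differently numbered ones had correlations between -0.11 and 0.29. Deviations were taken from the mean of each group, which ties these values together. They therefore cannot show whether arrays shared a culture or a batch. After Benjamini-Hochberg adjustment, 267 probe sets passed the methods' t-test, with 0 members, 0 other replication genes, 1 G1 cyclin or inhibitor and 0 G2/M genes. With probe set means, 13 members, 1 of the E2F and retinoblastoma genes, 1 G1 cyclin or inhibitor and 6 G2/M genes passed. Over all 12322 genes in that fit, 12.5% passed. Other replication genes passing numbered 1 after quantile normalization and 1 with no filter. Higher and lower calls over all probe sets were 951 and 1087 after quantile normalization and 886 and 1189 after median centring, against 1014 and 929. Leaving out 1 array gave 696 to 1808 probe sets, 0 to 7 members, 0 to 3 other replication genes, 1 to 2 G1 cyclins or inhibitors, 1 to 3 G2/M genes and 0 of the E2F and retinoblastoma genes. Signs turned only for members near 0. E2F1 was -0.014 after quantile normalization and -0.0093 after median centring, PCNA -0.00026 after median centring and DSCC1 -0.040 on probe set means. Without single arrays, PCNA ranged between -0.036 and 0.076, E2F1 between -0.034 and 0.054, E2F8 between -0.13 and 0.074, GINS1 between -0.052 and 0.034, DSCC1 between -0.030 and 0.082, MCM4 between -0.014 and 0.095 and RFC4 between -0.030 and 0.015. The cause of these shifts was not tested.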
